A study of Mus musculus with 24 samples.

Results

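The genes described here encode 6 structural noncoding RNAs: Rpph1 (the RNA of RNase P), Rmrp (the RNA of RNase MRP), Rn7sk (7SK), Rn7s1 and Rn7s2 (both 7SL, the RNA of the signal recognition particle) and Terc (the telomerase RNA). They were chosen by name, from the rows of the gene count table whose Ensembl identifiers carry these symbols in GENCODE mouse release 21. The 6 names held 7 of the 55335 rows, because Rmrp is annotated as 2 genes. Only Rpph1 and Rn7sk had counts enough to be measured, with 13634 and 4726 counts over 24 libraries, and these 2 were the only members to pass the filter on low counts. Rn7s2 had 1 count, and Rmrp, Rn7s1 and Terc were at 0 in every library.

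RNase P is a ribonucleoprotein that removes the 5′ leader of precursor tRNAs, and RNase MRP, which shares most of its proteins, takes part in ribosomal RNA processing. 7SK holds the elongation factor P-TEFb in an inactive complex and so limits the release of paused RNA polymerase II. The signal recognition particle brings ribosomes that make secreted or membrane proteins to the endoplasmic reticulum, and Terc carries the template from which telomerase copies telomere repeats, an activity typical of embryonic stem cells. RNA polymerase III makes the RNase P, RNase MRP, 7SK and 7SL RNAs, whereas RNA polymerase II makes Terc.

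Sequences of Rpph1, Rn7sk, Rmrp and Terc are given 5′ to 3′ from the GENCODE transcripts (GRCm38), to show which stretches they share with other annotated exons and which short motifs they hold. Rpph1 (ENSMUSG00000092837.1) lies on the minus strand at chr14:50807449-50807767 and is 319 bases long. Its ends are shown, as bases 1 to 60 and 240 to 319, with capitals for bases that no exon of another gene on the same strand covers. Rn7sk (ENSMUSG00000065037.1) lies on the minus strand at chr9:78175303-78175633 and is 331 bases long. Its first 300 bases are shown, with the 3 copies of GATC in capitals (bases 13 to 16, 42 to 45 and 64 to 67). Rn7s1 (ENSMUSG00000099021.1, plus strand, chr12:69159295-69159594) and Rn7s2 (ENSMUSG00000099250.1, minus strand, chr12:69361182-69361481) are identical to each other over all 300 bases. The longer Rmrp row (ENSMUSG00000115420.1, minus strand, chr4:43492783-43493063) is shown with capitals for the 10 end bases that the shorter Rmrp row lacks. Terc (ENSMUSG00000064796.1, minus strand, chr3:96414437-96414859) is 423 bases long. Its first 90 bases are shown, with its longest stretch complementary to TTAGGG repeats, 9 bases at positions 28 to 36, in capitals.
Rpph1, 5′ end: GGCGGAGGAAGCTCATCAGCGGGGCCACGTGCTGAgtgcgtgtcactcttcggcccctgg
Rpph1, 3′ end: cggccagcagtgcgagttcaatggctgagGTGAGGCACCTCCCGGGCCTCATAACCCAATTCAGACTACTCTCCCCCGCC
Rn7sk: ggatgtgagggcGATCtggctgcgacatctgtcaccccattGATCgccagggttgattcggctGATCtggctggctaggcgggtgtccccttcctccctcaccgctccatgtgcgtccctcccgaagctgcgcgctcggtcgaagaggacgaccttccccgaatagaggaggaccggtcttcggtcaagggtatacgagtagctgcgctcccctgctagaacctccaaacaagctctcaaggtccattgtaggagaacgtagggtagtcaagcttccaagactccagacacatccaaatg
Rmrp: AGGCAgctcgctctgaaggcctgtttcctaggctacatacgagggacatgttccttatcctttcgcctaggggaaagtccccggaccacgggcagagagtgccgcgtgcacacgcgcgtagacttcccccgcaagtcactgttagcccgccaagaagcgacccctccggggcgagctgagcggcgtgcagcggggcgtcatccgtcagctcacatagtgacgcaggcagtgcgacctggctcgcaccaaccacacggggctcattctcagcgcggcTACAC
Terc: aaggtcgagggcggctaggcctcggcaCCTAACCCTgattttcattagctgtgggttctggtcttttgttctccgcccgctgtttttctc
GATC is its own reverse complement. Of 5185 annotated transcripts within 10% of the length of Rn7sk, 66.1% held at least 1 copy and 8.95% held 3 or more. The letters CCTAACCCT, or their reverse complement, stood in 0.215% of 9294 transcripts within 10% of the length of Terc. These matches describe the sequences only.

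The libraries came from mouse embryonic stem cells (mESC) and from neural progenitor cells (NPC) differentiated from them, in 6 lines with 2 libraries per line and cell type. The lines were wild type (WT), Htt knockout (KO) and heterozygous knock-ins of the Hdh (Htt) CAG tract with 20, 50, 92 and 111 repeats (Q20, Q50, Q92 and Q111). The growth protocol gives 89 repeats for the line titled Q92, and the count columns for it are named Q89. The mESC were grown with leukemia inhibitory factor on CF-1 mouse embryonic fibroblast feeders, and the NPC on laminin with FGF and EGF. Each genotype is 1 line, so genotype and line cannot be told apart, and the labels call the 2 libraries of a group biological samples without saying that they came from separate cultures.

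Library totals ran from 342022 to 682113 counts in NPC and from 642384 to 2360434 in mESC. The 6 members together took between 0.0287% and 0.155% of a library. Htt itself had too few counts to check the labels, with 2 to 3 counts in KO and 8 in WT mESC, and 1 in KO and 2 to 9 in WT NPC. The summed embryonic stem cell markers (21 listed) ran from 2170 to 4349 counts in mESC and reached at most 2 in 10 of the NPC libraries. In the 2 Q20 NPC libraries they summed to 202 and 234. The NPC markers (17 listed) summed to 8 to 29 counts in mESC and 119 to 409 in NPC, and the feeder markers (14 listed) to at most 6 in any library. In mESC, 7 libraries exceeded 1500000 counts (the first replicate of every line and the second of Q20), and the second replicates of WT, KO, Q50, Q92 and Q111 lay below it. The labels name no batch for this split, so the comparison of the cell types and the ratio of the members are given on both sides of it, and the mESC line comparisons also with a term for it.

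The nucleolar processing RNA Rmrp was at 0 in all 24 libraries in both of its rows. A count of 0 allows up to 3 counts, or 1.27 CPM (counts divided by the library total, times 1000000) at the highest library total and 8.77 CPM at the lowest. These limits cover counting error only. The shorter row, a ribozyme of 271 bases at chr4:43492788-43493058, lies wholly inside the longer row, a lincRNA of 281 bases on the same strand. Both rows also overlap 124 bases of an exon of Ccdc107 on the opposite strand, and Ccdc107 had 6 counts in all. Thus only 10 bases of Rmrp lie outside other exons, against reads of 50 bases.

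The signal recognition particle RNA gave 1 count in all, assigned to Rn7s2 in the second Q111 mESC library. Rn7s1 had none. A read from either gene matches the other over its whole length. In each of them, 147 of the 300 bases also lie within annotated microRNA rows (Gm47287 and Gm47295 in Rn7s1, Gm47305 and Gm47299 in Rn7s2), all at 0. Counting genes that share at least 20% of their 30-base stretches with a member gave 13 genes, of which 3 had any count, 6 counts together. These were Gm26461 with 3 counts and Rn7s6 with 2, which share stretches with 7SL, and Gm26035 with 1, which shares 52.7% of its stretches with Rn7sk. Among the genes below that share were Rprl3 with 231 counts and Rprl2 with 10. They share 6.1% and 2.3% of their stretches with Rpph1.

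Terc, the telomerase RNA, was at 0 in every mESC and every NPC library, although no other exon overlaps any of its 423 bases. It was therefore below the detection limit of these libraries, also in the stem cells, and no direction between cell types can be given.

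The same pattern of overlap was counted over all short noncoding rows of the annotation. Of 513 rows with every base inside another exon on the same strand, 0.2% had a count in any library. Of 4958 rows without such overlap, 15.5% had one, and of 256 rows with partial overlap, 28.5%. Rows whose sequence is identical to that of another row had a count in 3.4% of 529 cases, against 15.9% of 5198 others. How the counter treated reads that fit several genes is not given in the sources used here, and its part in the zeros of Rmrp, Rn7s1 and Rn7s2 was not tested.

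**Figure D1:**
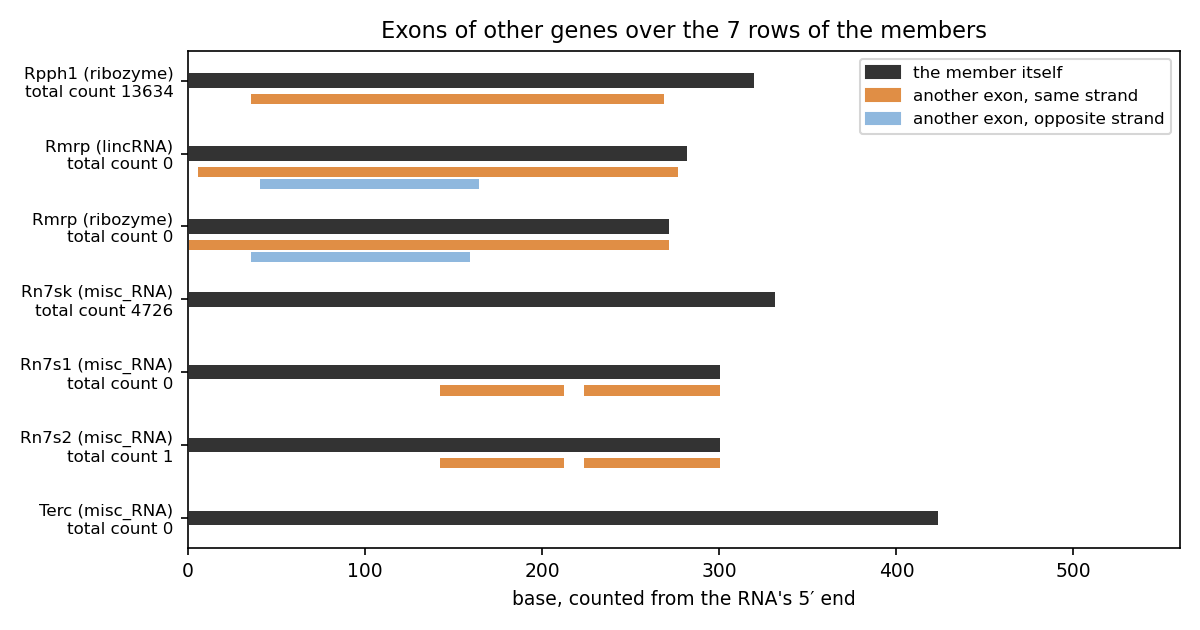
The 7 rows of the members drawn from the 5′ end of each RNA (horizontal axis, bases), with exons of other genes on the same strand (orange) and on the opposite strand (blue) below each. Rpph1, counted 13634 times, has 233 of its bases under another exon, Rn7sk (4726 counts) and Terc (0 counts) have none, and the shorter Rmrp row is covered throughout.

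Rpph1 was the most abundant member in every library, with 332 to 1079 counts, although 233 of its 319 bases (73.0%) lie inside an exon of Ccnb1ip1 on the same strand. Ccnb1ip1 itself had 9 counts in all. Reads in the shared stretch cannot be told apart by position, so the Rpph1 counts are uncertain in that respect. The 86 bases of Rpph1 outside that exon are the 35 at its 5′ end and the 51 at its 3′ end, shown in capitals above. In mESC, the Rpph1 level on the TMM-scaled CPM scale was 463 and 1051 in WT (replicates 1 and 2), 296 and 927 in KO, and 305 and 312 in Q20. The Q50 mESC libraries were at 484 and 1046, the Q92 ones at 267 and 755, and the Q111 ones at 267 and 554. The replicates of Q20 lay close together, and in the other lines the second replicate was higher than the first.

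In NPC, Rpph1 stood at 722 and 766 CPM in WT, 672 and 782 in KO, and 686 and 857 in Q20. The Q50 NPC libraries were the highest of all, at 1401 and 1719 CPM, and those of Q92 (727 and 514 CPM) and Q111 (1029 and 1047 CPM) followed no order by repeat length. Over the 12 groups, the mean level ran from 308 ± 5.11 CPM (SD, n = 2) in Q20 mESC to 1560 ± 225 CPM (SD, n = 2) in Q50 NPC. Neighbouring groups in that order overlapped in 9 of 11 cases. The exceptions were the steps from Q20 NPC to Q111 NPC and from Q111 NPC to Q50 NPC. The groups were sorted by their own means, and how often other genes overlap in this way was not counted.

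Rn7sk, the 7SK RNA, varied over a narrower range and has no annotated overlap. Its mESC levels were 234 and 238 CPM in WT, 149 and 223 in KO, and 173 and 181 in Q20. The Q50 libraries had 179 and 173 CPM, those of Q92 had 137 and 230, and those of Q111 had 182 and 204. The widest gaps between mESC replicates were in Q92 and KO.

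In NPC, Rn7sk reached 311 and 263 CPM in WT, 248 and 297 in KO, and 182 and 229 in Q20. The Q50 libraries had 294 and 315 CPM, those of Q92 had 206 and 223, and those of Q111 had 197 and 256. The 12 NPC libraries (182 to 315 CPM, median 252) overlapped the 12 mESC libraries (137 to 238 CPM, median 181). The group means ran from 176 ± 3.78 CPM (SD, n = 2) in Q50 mESC to 304 ± 15.3 CPM (SD, n = 2) in Q50 NPC. Neighbouring groups overlapped in 10 of 11 cases, the exception being WT mESC and KO NPC. Here too the groups were sorted by their own means, and other genes were not counted in this way.

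**Figure D2:**
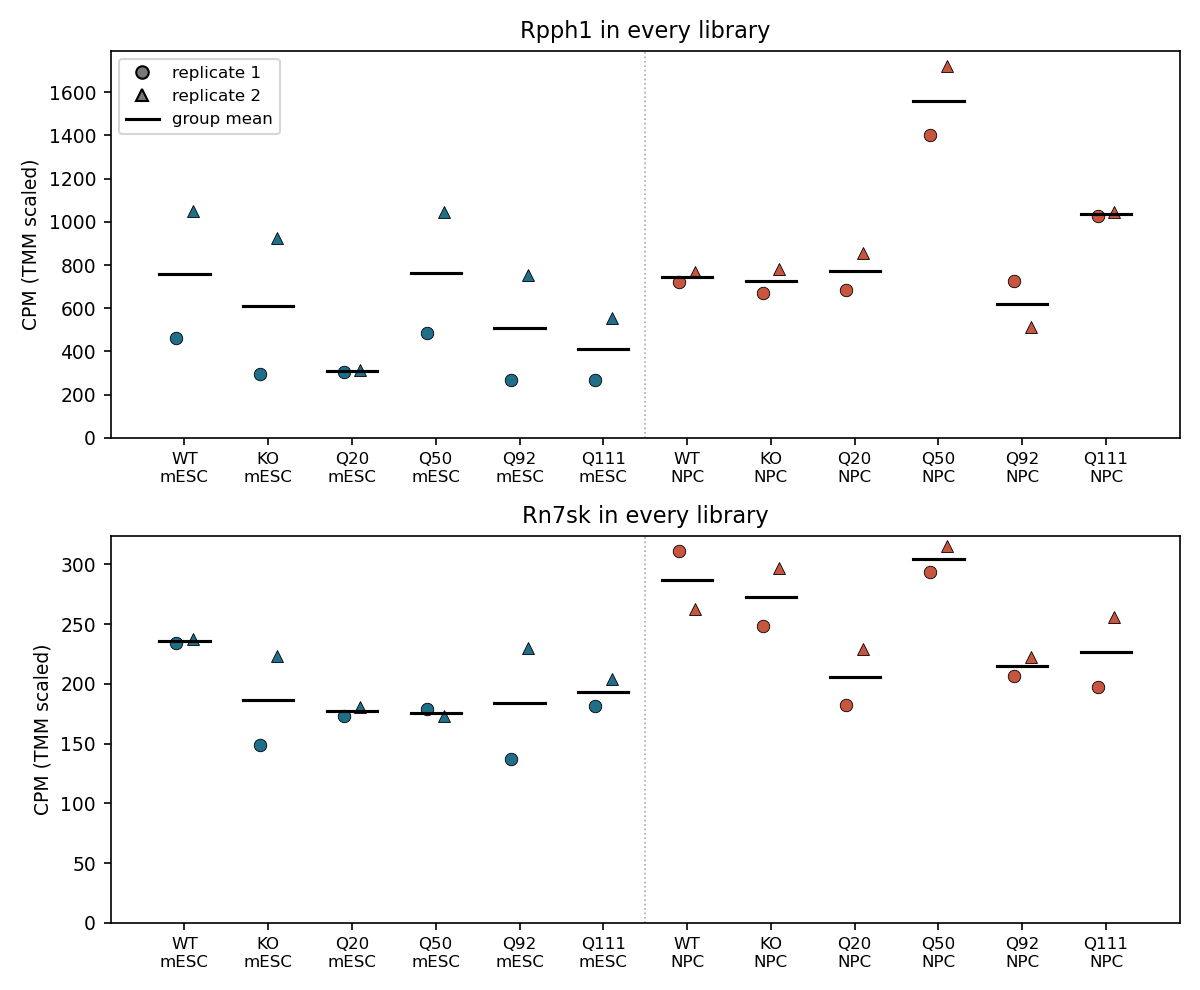
Level of Rpph1 (top) and Rn7sk (bottom) in CPM after TMM scaling (vertical axes from 0) for each library of the 12 groups, with circles for replicate 1, triangles for replicate 2 and bars for group means. Rpph1 is highest in Q50 NPC (1401 and 1719 CPM), and 5 of the 6 mESC lines have a second replicate far above the first.

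Per kilobase of RNA, Rpph1 exceeded Rn7sk in both cell types. The median level in mESC was 1484 CPM per kilobase for Rpph1 (range 836 to 3294) and 548 for Rn7sk (415 to 718). In NPC it was 2426 for Rpph1 (1610 to 5389) and 762 for Rn7sk (550 to 952). These values order counts per base of gene, not molecules in the cell. Whole lengths were used, although 233 of the 319 bases of Rpph1, and none of Rn7sk, lie inside another exon on the same strand. How many bases of Rpph1 could receive counts is not known, so the per-base values may not be comparable.

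Both measured members were higher in NPC than in mESC when all lines were averaged. Rpph1 was higher by 0.70 ± 0.21 on the log2 scale (SE; adjusted p = 0.00726, edgeR quasi-likelihood test over 904 genes), with 12 libraries per cell type. The range was 267 to 1051 CPM in mESC (median 473) and 514 to 1719 CPM in NPC (median 774), so the cell types overlapped. Rn7sk was higher by 0.38 ± 0.14 (SE; adjusted p = 0.0260, same test). The SE and p of both rest on the spread between the 2 libraries of a group, not on that between lines. Of all genes tested, 30.4% were called higher in NPC by the same rule, so 2 of 2 tested members called higher is to be read against that share. A higher share of counts cannot be told apart from a loss of other RNA, nor a change in cell number from one in RNA per cell.

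By line, both NPC libraries were above both mESC libraries for Rpph1 in Q20, Q50 and Q111. In WT, KO and Q92, both NPC libraries lay between the first and the second mESC replicate. For Rn7sk, both NPC libraries were above both mESC libraries in WT, KO, Q20 and Q50, and overlapped them in Q92 and Q111. The share of all genes that separate this way within a line was not counted. With all NPC against all mESC libraries, 7.08% of 904 genes lay wholly higher in NPC and 3.87% wholly lower, neither member among them. A joint test of whether the cell type difference varied among the 6 lines did not reach the threshold for either member (adjusted p = 0.810 for Rpph1 and 0.955 for Rn7sk, edgeR). That test called 19 of 904 genes, or 2.1%. In simulated counts it recovered 8.65% of 185 genes changed by a log2 value of 2 in Q50 NPC alone. It thus had little power for such a change among genes drawn from all that passed the filter. Its power at the counts of the members was not measured.

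The size of the Rpph1 difference depended on which mESC libraries were used. Against the 7 mESC libraries above 1500000 counts (267 to 484 CPM), Rpph1 was higher in NPC by 1.02 ± 0.11 (SE; adjusted p = 7.65e-10, edgeR over 697 genes, 30.7% of which were called higher). Against the 5 libraries below 1500000 counts (554 to 1051 CPM), the difference was -0.045 ± 0.11 (adjusted p = 0.760, edgeR over 688 genes, 31.7% called higher). In both fits each mESC line but Q20 is 1 library, which is assumed to vary like the other groups, and the second fit leaves Q20 out. The split was made after the data were seen, so no p-value of these fits tests a difference fixed beforehand. Rn7sk differed by 0.18 (adjusted p = 0.187) and 0.17 (adjusted p = 0.302) in these fits and was not called in either.

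Single lines, the filter on low counts and single libraries also moved the calls of both members between cell types. Without the Q20 line, whose NPC libraries held stem cell markers, the differences were 0.49 for Rpph1 (adjusted p = 0.0681) and 0.29 for Rn7sk (adjusted p = 0.116). Without the Q50 line, Rpph1 kept its call at 0.50 (adjusted p = 0.0460) and Rn7sk lost it at 0.16 (adjusted p = 0.394). With no filter on low counts, neither member was called (0.18 for Rpph1 and -0.17 for Rn7sk, with the median of all genes at -0.35). Leaving out any 1 library let more genes pass the filter. Rn7sk was then never called (0.15 to 0.27), and Rpph1 lost its call without the first Q92 mESC, the second WT NPC or the first Q92 NPC library (0.45, 0.48 and 0.46). With the same 904 genes, Rpph1 was called in 24 of 24 such fits. Rn7sk was called in 19 of 24, and not without either KO mESC library, the first Q92 mESC library, or the second Q20 or Q111 NPC library.

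Compared with TMM scaling, library totals moved the median of all genes by 0.34, and library totals without Rny1 moved it by 0.73. Relative to that median, Rpph1 was higher by 0.72 with TMM scaling, 0.67 with library totals and 0.67 with totals without Rny1. The same values for Rn7sk were 0.40, 0.39 and 0.39.

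**Figure D3:**
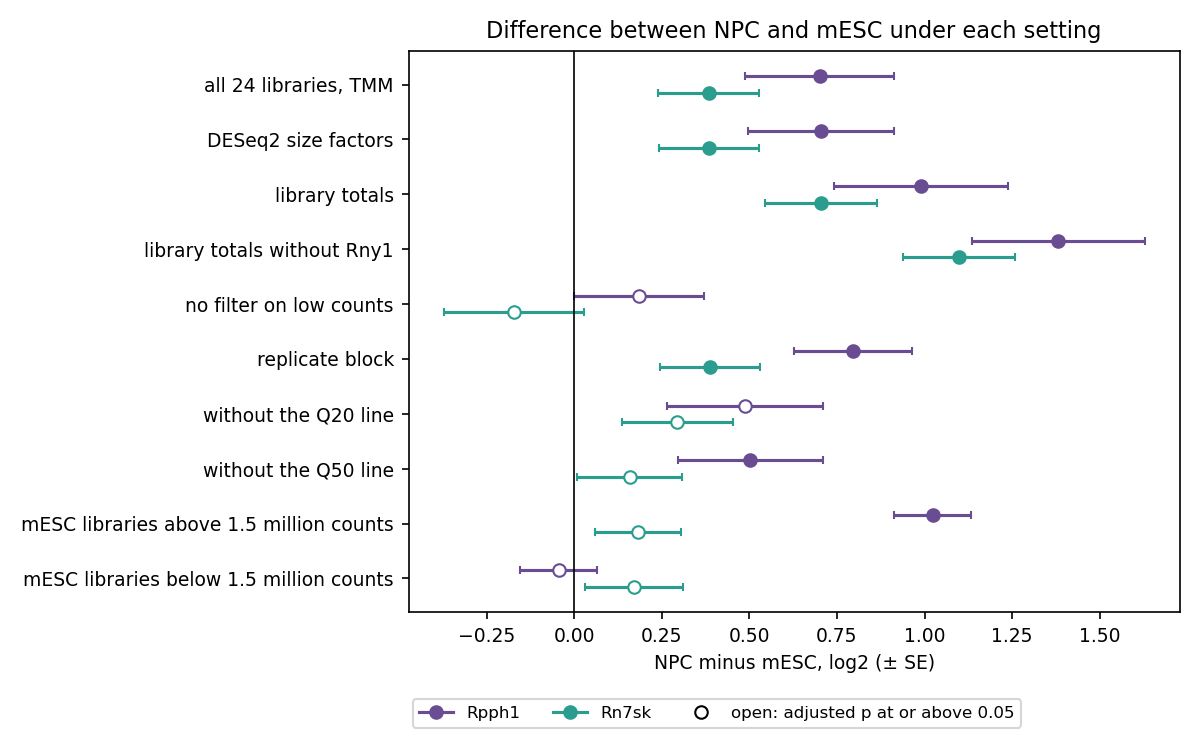
Difference between NPC and mESC on the log2 scale with its SE (horizontal axis) for Rpph1 (purple) and Rn7sk (green) under 10 settings, where open points have an adjusted p at or above 0.05. Rpph1 lies at 1.02 against the deeper mESC libraries and at -0.045 against the shallower ones. Rn7sk falls below 0 where no filter on low counts was used, and there the median of all genes was -0.35. In the settings split by mESC depth, most mESC groups hold 1 library.

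Rpph1 was higher in the second mESC replicate in every line, by little in Q20 and by a wide gap in the other 5. In WT, KO, Q50, Q92 and Q111 the second replicate exceeded the first by 1.12, 1.50, 0.90, 1.40 and 0.89 on the log2 scale, a mean of 1.16. The mean for Rn7sk was 0.16, with 3 lines above 0 and 2 below. Over the 1766 genes tested in mESC, 14.7% were higher in the second replicate in all 5 lines and 17.2% lower, and the mean gap of Rpph1 stood at the 94.3 percentile. The Q20 line, with both libraries above 1500000 counts, had Rpph1 at 305 and 312 CPM.

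Rprl3, annotated as a ribozyme at chr8:3803069-3803358 and chosen here after its values were seen because its symbol stands for RNase P RNA-like, moved in the same direction. It had 231 counts in all, and its second replicate exceeded the first in those 5 lines by 1.41 to 2.72, with a mean of 1.94 (99.5 percentile). It did not differ between cell types by the test (-0.58 ± 0.44, SE; adjusted p = 0.269, edgeR). The lincRNA Gm26917, which held most lincRNA counts, took 19.0% to 23.9% of the 5 shallower mESC libraries and 11.1% to 22.0% of the 7 deeper ones. Its part, and that of depth, in the Rpph1 gap was not tested.

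**Figure D4:**
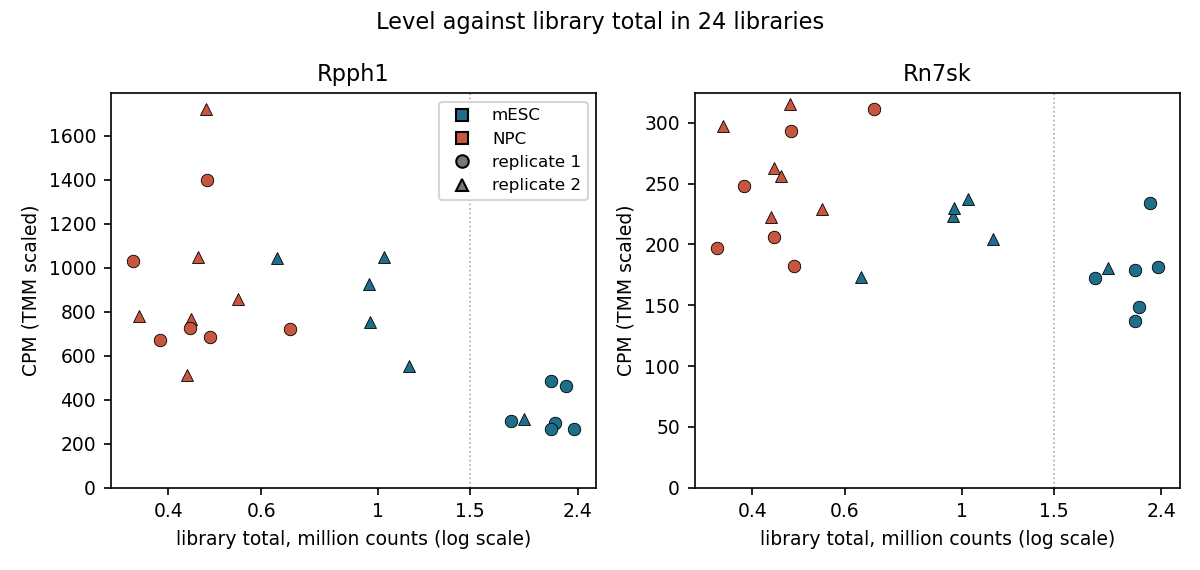
Level of Rpph1 (left) and Rn7sk (right) in TMM-scaled CPM (vertical axes) against the library total (log scale) for 24 libraries, mESC in blue and NPC in red, with circles for replicate 1 and triangles for replicate 2. Rpph1 is at 267 to 484 CPM in the 7 mESC libraries right of the dotted line at 1500000 counts and at 554 to 1051 CPM in the 5 left of it, while Rn7sk overlaps between these sets.

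Among the NPC lines, Rpph1 varied and Rn7sk did not pass the test. The joint test over 6 lines gave an adjusted p of 0.00173 for Rpph1 and 0.663 for Rn7sk (edgeR, 12 NPC libraries, 441 genes). Of those genes, 37.2% were called, so 1 of 2 members called is no sign of anything particular to them. In Q50 NPC, Rpph1 exceeded WT by 1.02 ± 0.20 (SE; adjusted p = 0.00732, edgeR), and both Q50 libraries were above every other NPC library. In that contrast 5.22% of genes were called higher and 6.58% in either direction. The share of genes with both Q50 libraries above every other NPC library was not counted.

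The call of the Q50 difference depended on the filter and on 1 library. That of the joint test depended on the filter, on the Q50 line and on the scaling. With no filter on low counts, Q50 against WT gave Rpph1 0.67 (adjusted p = 1.00, edgeR over 14269 genes), and the joint test gave it an adjusted p of 0.272. The Q50 contrast then called 0 genes with edgeR, and 277 had an unadjusted p under 0.05. Without the second Q50 NPC library, it was 0.77 (adjusted p = 0.132, edgeR). Without the whole Q50 line, the joint test over the NPC lines gave Rpph1 an adjusted p of 0.127. With library totals in place of TMM scaling, the joint test gave 0.0780, while Q50 against WT was 0.73 (adjusted p = 0.0473). On library totals, Rpph1 was at 1282 and 1296 CPM in Q50 NPC and at 708 and 846 CPM in WT NPC. The Y RNA Rny1 took 32.6% and 40.3% of the Q50 NPC counts, against 13.0% to 27.6% in the other NPC libraries, and its part in the Q50 value was not tested.

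The other NPC lines did not differ from WT by this test. Rpph1 in Q111 NPC was higher by 0.61 ± 0.20 (SE; adjusted p = 0.0526, edgeR), and passed the threshold with DESeq2 (adjusted p = 0.0488) and with a replicate block (adjusted p = 0.0473). Leaving out 1 NPC library gave a call in 4 of 12 cases (adjusted p from 0.0143 to 0.403, edgeR), namely without either KO library, the first Q50 or the second Q92 library. With no filter on low counts the Q111 value was 0.16 (adjusted p = 1.00). The Rpph1 differences from WT were 0.045 in KO, 0.24 in Q20 and 0.039 in Q92, each with an SE of 0.19 to 0.20. For Rn7sk, the 5 differences from WT in NPC lay between -0.29 and 0.036 with an SE of 0.22. The share of genes called was 1.36% in KO, 12.7% in Q20, 18.8% in Q92 and 10.9% in Q111. All 5 contrasts share the 2 WT libraries.

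No member was called between lines in mESC. The joint test gave both members an adjusted p of 1.00 (edgeR over 1766 genes). It called 1 gene, or 0.0566%. There were 62 genes with an unadjusted p under 0.05, and DESeq2 called 9. Against WT, Rpph1 differed by -0.27 in KO, -1.21 in Q20, 0.034 in Q50, -0.54 in Q92 and -1.02 in Q111, each with an SE of 0.61 to 0.62. Single libraries moved these values. Without the second WT library they were 0.32 in KO, -0.59 in Q20, 0.56 in Q50, 0.12 in Q92 and -0.42 in Q111. Leaving out the first WT library gave -1.66 in Q20 and -0.48 in Q50, and leaving out the line's own second library gave -1.21 in KO, -1.45 in Q92 and -1.51 in Q111. No such fit called Rpph1, with adjusted p of at least 0.779 (edgeR). The common biological coefficient of variation was 37.9% in mESC and 17.3% in NPC. Rn7sk differences from WT lay between -0.41 and -0.29 with an SE of 0.43. The Q20 contrast called 0.0566% of genes and the other 4 contrasts called 0% with edgeR. Over the 5 contrasts, 18 to 88 genes had an unadjusted p under 0.05, and DESeq2 called 0 to 7.

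Both Q20 mESC libraries exceeded 1500000 counts, and each other mESC line had 1 library on either side of that total. With a term for the side, Rpph1 differed from WT by -0.34 in KO, -0.52 in Q20, 0.078 in Q50, -0.59 in Q92 and -0.97 in Q111, each with an SE of 0.30 to 0.32. The Q20 value was thus nearer 0 than without the term, and the other 4 moved by less than their SE. The joint test with this term gave an adjusted p of 0.165 for Rpph1 and 0.918 for Rn7sk (edgeR), while it called 65 genes in all, against 1 without the term. With a replicate block in its place, the joint test gave Rpph1 an adjusted p of 0.386 and called 29 genes.

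Neither member passed the test for a change with CAG repeat length, which used 8 knock-in libraries in mESC and 8 in NPC. The slope per 10 repeats of Rpph1 was -0.0088 ± 0.074 in mESC and -0.0037 ± 0.041 in NPC (SE; adjusted p = 1.00 and 0.989, edgeR). That of Rn7sk was -0.0036 ± 0.050 and 0.0084 ± 0.032 (adjusted p = 1.00 and 0.953). Without the Q20 line, the slope of Rpph1 was -0.15 in mESC and -0.084 in NPC (adjusted p = 0.999 and 0.386, edgeR). With the term for library total in mESC it was -0.076 ± 0.051 (SE; adjusted p = 0.793), and leaving out 1 library gave -0.051 to 0.042 in mESC and -0.036 to 0.020 in NPC. The slope fit called 0% of 1487 genes in mESC (48 at an unadjusted p under 0.05, and 0 with DESeq2) and 6.45% of 403 genes in NPC. Each repeat length is 1 line, so length and line cannot be told apart.

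The ratio of Rpph1 to Rn7sk within a library needs no scaling by the total. It was 1.98 and 4.42 in WT mESC, 1.99 and 4.15 in KO mESC, and 1.76 and 1.72 in Q20 mESC. In Q50, Q92 and Q111 mESC it was 2.71 and 6.03, 1.94 and 3.28, and 1.47 and 2.71. The second replicate was the higher in every mESC line but Q20.

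In NPC the ratio was 2.32 and 2.91 in WT, 2.71 and 2.63 in KO, and 3.77 and 3.75 in Q20. It was 4.77 and 5.46 in Q50 NPC, 3.52 and 2.31 in Q92 NPC, and 5.21 and 4.09 in Q111 NPC. Averaged over lines, the log2 ratio was higher in NPC by 0.42 ± 0.25 (SE over 6 lines; p = 0.188, exact two-sided sign-flip permutation test, smallest possible p = 0.0312), with 4 of 6 lines higher. Differences by line were -0.19 in WT, -0.11 in KO, 1.11 in Q20, 0.34 in Q50, 0.18 in Q92 and 1.21 in Q111. With the 7 deeper mESC libraries the ratio was higher in NPC in 6 of 6 lines, by 0.84 (p = 0.0312 in the same exact test). With the 5 shallower ones it was lower by 0.22 on average and higher in 1 of 5 lines (exact p = 0.438). This split was made after the data were seen, so neither p-value tests a difference fixed beforehand.

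**Figure D5:**
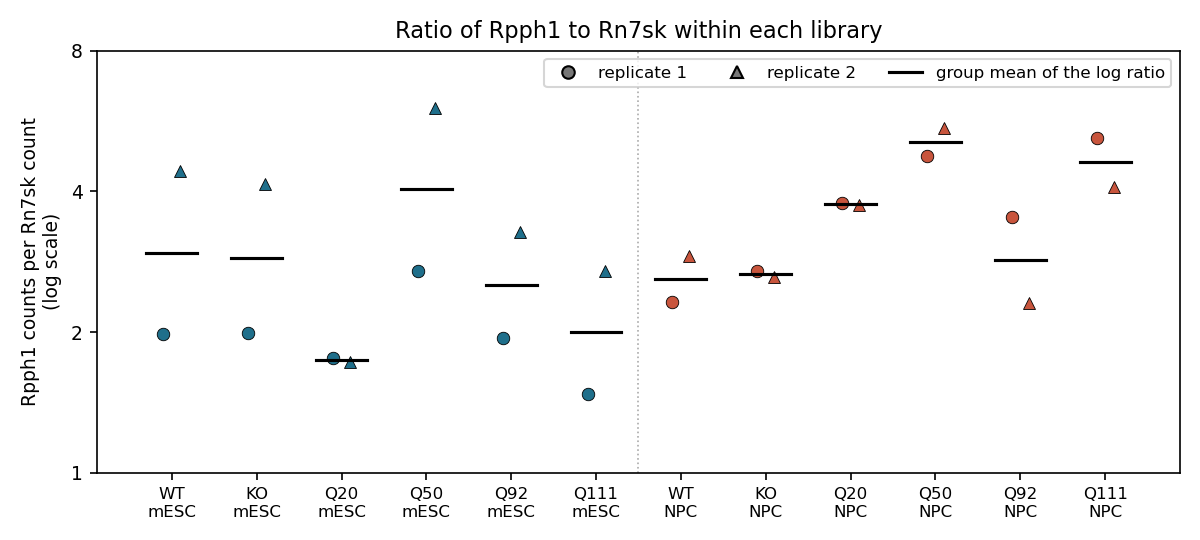
Counts of Rpph1 per count of Rn7sk (vertical axis, log scale) in each library of the 12 groups, with circles for replicate 1, triangles for replicate 2 and bars for the mean of the log ratio. The ratio lies between 1.47 and 6.03 in mESC and between 2.31 and 5.46 in NPC, and the widest gaps between replicates are in mESC lines other than Q20.

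Genes with the pattern most like each member were taken by Pearson correlation of log2 CPM over the 24 libraries, among 482 genes, as a description only. The points share libraries, depth and scaling. Rpph1 was most like Gm28438, an unprocessed pseudogene (r = 0.896), and the mitochondrial mRNAs mt-Nd2 (0.893) and mt-Cytb (0.880), where the median gene had -0.095. After each cell type mean was subtracted, the closest were the snoRNA Snord42b (0.876), mt-Nd2 (0.858) and Gm28438 (0.850). Rn7sk was most like the snoRNA Gm25128 (0.879), Gm28438 (0.811) and the snoRNA Snord66 (0.798), where the median gene had -0.11. After subtraction these were Gm25128 (0.799), the snRNA Gm25313 (0.747) and Gm28438 (0.711). The members correlated with each other by 0.706, and by 0.560 after subtraction.

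The protein partners of these RNAs were mostly below the filter. The 11 RNase P and MRP proteins together had 5 to 19 counts in a mESC library and 1 to 7 in an NPC library. None of them, none of 11 signal recognition particle proteins and none of 9 telomerase genes was tested between NPC and mESC. Of 7 proteins of the 7SK particle and P-TEFb, 1 was tested, the cyclin Ccnt2, and it did not pass (-0.13 ± 0.35, SE; adjusted p = 0.764, edgeR). Of 30 genes of RNA polymerase III and its factors, 2 were tested and 1 was called higher, as were 30.4% of all genes tested. Gtf3c1, a subunit of the initiation factor TFIIIC, was higher in NPC by 1.26 ± 0.35 (adjusted p = 0.00401, edgeR). It had only 56 counts over all mESC and 55 over all NPC libraries. It may have passed the filter through NPC libraries alone, so its call carries little weight. Ssb, the La protein that binds the ends of new RNA polymerase III transcripts, had -0.73 ± 0.35 (adjusted p = 0.0749, edgeR), with 142 and 36 counts.

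Other RNA polymerase III RNAs were tested in the same fit. Of 9 listed, 3 were tested and 2 were called higher in NPC, as were 30.4% of all 904 genes tested. The Y RNA Rny1, a partner of the Ro protein, rose by 4.21 ± 0.15 (SE; adjusted p = 3.38e-16, edgeR), and Rny3 by 1.95 ± 0.12 (adjusted p = 5.88e-12). The vault RNA Vaultrc5 had 0.13 ± 0.23 (adjusted p = 0.634). Rpph1 (0.70) and Rn7sk (0.38) thus lay between Vaultrc5 and the Y RNAs on the same scale, and these differences between genes were not tested.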

How the data were processed

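Small RNA libraries of 24 samples in 12 groups of 2 were analysed as deposited counts per gene. Per the submitters' processing notes, CASAVA 1.8, STAR and HTSeq were used with GRCm38.p6, with settings, strand and the treatment of multiply mapping reads not given in the sources used here. The count columns are whole numbers, not normalized, in the deposited table. Identifiers were matched without version to GENCODE mouse release 21 (55154 of 55335, with 57 of 25027120 counts unmatched). Overlaps, copies and sequences come from the same annotation, and the sequence of Rn7s1 and Rn7s2 is not reported here.

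Tests used edgeR 4.0.16 in R 4.3.3 (glmQLFit and glmQLFTest, TMM scaling, filterByExpr with a minimum count of 10 and total of 15) on the whole table, with Benjamini-Hochberg adjustment over all genes tested and a call at an adjusted p of 0.05. CPM are counts divided by the TMM-scaled library total, times 1000000. NPC against mESC is the mean of 6 groups minus the mean of 6 groups, the lines were tested jointly and against WT within a cell type, and the slope is per 10 CAG repeats. DESeq2 1.42.0, other scalings, no filter, a replicate block and leaving out libraries or lines were alternatives, and the depth split was added after seeing the data.

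The members and lists were chosen with earlier results of these data known. Named genes were the members, the 3 most alike by each correlation (mean of at least 10 CPM), up to 3 called per list and the copies with most counts. Replicates differed by more than sampling noise (chi-square per degree of freedom 3.17 to 204). In simulated counts with 200 genes changed by a log2 value of 2, 100% of 145 changed genes tested were called for NPC against mESC, 38.4% of 177 for lines in mESC and 88.3% of 171 for lines in NPC. The changed genes were drawn from all that passed the filter, and for the lines the change was in Q50 alone. Of the calls made in these simulations, 11%, 6.85% and 2.58% were false.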

Additional observations from a re-analysis of the deposited data

How the results depend on the processing

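The call of Rpph1 between NPC and mESC held with the other scalings, DESeq2, an additive model, a replicate block and without Q50, and was lost without a filter on low counts (0.18) and without Q20. The Rpph1 difference turned to -0.045 against mESC libraries below 1500000 counts. That of Rn7sk turned to -0.17 without a filter, where the median of all genes was -0.35. Leaving out 1 library loosens the filter (1289 to 1373 genes) and then gave Rpph1 0.44 to 0.70, called in 21 of 24 cases, and Rn7sk 0.15 to 0.27, called in 0 of 24. With the same 904 genes Rpph1 was called in 24 of 24 and Rn7sk in 19 of 24, lowest (0.23) without the first Q92 mESC replicate. Of the genes called between cell types, 52.1% were higher with TMM, 68.8% with library totals, 81.9% with totals without Rny1 and 22.9% without a filter.

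Without a filter, 2024 genes were called for NPC against mESC (528 with it), 6 for lines in mESC, 6 for each line against WT in mESC (1) and 64 in NPC (145), and 2 for the slope in mESC and 50 in NPC (0 and 26). The main fits did not pair the samples by replicate number. Differences between replicates correlated above 0.1 in 10 of 15 pairs of mESC groups and 4 of 15 in NPC, so not in every pair. The 10 are all the pairs among mESC lines other than Q20 (0.408 to 0.516), where the number also follows the library total. Pairs with Q20 reached at most 0.0784. The main mESC fits thus leave in their spread a replicate gap that the lines other than Q20 share. The replicate block gave 29, 28, 3 and 9 genes for lines in mESC, each line against WT in mESC and the slopes in mESC and NPC, changed the call of Rpph1 in Q111 NPC and changed no other call of a member. DESeq2 gave 9, 8 and 11 for lines and each line against WT in mESC and the slope in NPC. Library totals, with or without Rny1, gave 3 for lines and 2 for each line against WT in mESC. A depth class term in mESC gave 65, 48 and 2 for lines, each line against WT and the slope. Without Q20, the slope in NPC had 15 genes and line by cell type 0 (19). Leaving out 1 library gave 1 to 5 for lines in mESC, 100 to 227 in NPC, 0 to 7 and 88 to 192 for each line against WT in mESC and NPC, 0 to 3 and 6 to 34 for the slopes, and 8 to 32 for line by cell type. The ratio moved to 0.84 and -0.22 with the deeper and shallower mESC libraries. The causes were not tested. With 2 libraries a group and 76 to 422 counts of Rn7sk a library, small differences between lines cannot be resolved.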
